A study of Homo sapiens with 6 samples.

Results

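DKC1 and the other genes of the H/ACA ribonucleoprotein were followed in SNU449, an established human cell line of hepatocellular carcinoma, 3 days after knockdown of the spindle checkpoint gene MAD2L1. The members are the 7 genes DKC1, NOP10, NHP2, GAR1, NAF1, SHQ1 and TERT, found by symbol among 60589 rows of the deposited table, and each was present once. They were chosen by function around DKC1, whose low values in the knockdown libraries were already known, so their values in this contrast are given as a description, without a test. The libraries compared were of 2 kinds: siMAD2L1 (n = 3), from cells given an siRNA against MAD2L1, and siControl (n = 3), from cells given a control siRNA. All came from the same line in DMEM with serum at day 3. The values are TPM (transcript abundances), which are scaled by transcript length and by library total. The reads behind a value are not known, so no counting interval is given.

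Dyskerin, the product of DKC1, is a pseudouridine synthase. Small RNAs with a pair of hairpins and 2 short sequence boxes, H and ACA, guide it to uridines in ribosomal RNA and small nuclear RNA. NOP10, NHP2 and GAR1 complete the core of the particle. SHQ1 holds dyskerin before assembly, and NAF1 occupies the place that GAR1 takes in the mature particle. The same core binds the H/ACA domain of the telomerase RNA, whose reverse transcriptase is encoded by TERT. Mutations in DKC1, NOP10, NHP2 and TERT cause dyskeratosis congenita, a disorder of short telomeres.

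The libraries were first checked for the knockdown. MAD2L1 measured 4.47, 0.795 and 2.40 TPM in siMAD2L1 replicates 1, 2 and 3, and 13.7 to 14.5 TPM in siControl (log2 fold change -2.22, SE 0.357, limma adjusted p = 0.0105, range 0.00305 to 0.0597 over 19 alternatives; a two-sided exact permutation test gave p = 0.1, and 3 libraries against 3 cannot give less). The call was lost without siControl replicate 1, 2 or 3 (adjusted p = 0.0597, 0.0547 and 0.0572). The treatment field reads siMAD2L2 and siMAD2L3 for siMAD2L1 replicates 2 and 3, although their titles name MAD2L1. Whether the last digit there names a gene or counts the replicate is not given. MAD2L2 was 138 ± 15.3 TPM in siMAD2L1 and 145 ± 6.16 TPM in siControl (SD, n = 3 each; limma adjusted p = 0.698, range 0.148 to 0.946 over 19 alternatives). Nothing in the labels says whether the replicates are separate cultures, so the p-values describe only how far these libraries vary, which may be technical. Across 14790 genes that averaged 1 TPM or more, limma with Benjamini-Hochberg adjustment called 525 higher and 921 lower in siMAD2L1. Of the calls 63.7% were lower. That share was 73.3% with TPM rescaled to a total without mitochondrial genes and the 20 highest of all genes. It was 52.5% with upper-quartile scaling, 50.5% with quantile normalization and 41.8% with a transcript-length trend removed. The number called was 2422 without siMAD2L1 replicate 1, 793 and 645 without siMAD2L1 replicates 2 and 3, and 326, 514 and 383 without siControl replicates 1, 2 and 3. Mitochondrial transcripts held 9.21% to 10.9% of the TPM in siMAD2L1 and 15.2% to 15.3% in siControl. Of 10 hepatocyte markers 5 reached a mean of 1 TPM. APOB and TTR stood at 0 throughout and ALB at 0.122 to 0.441 TPM in siMAD2L1 and 0.237 to 0.451 TPM in siControl. FGB, a fibrinogen chain, fell to 1.91 to 3.21 TPM in siMAD2L1, against 6.59 to 8.70 TPM in siControl (limma adjusted p = 0.0142), and SERPINA1 and AFP lay under 3 TPM in every library. The summed TPM of those 10 markers was 286 to 312 in siMAD2L1 and 421 to 434 in siControl, most of it the keratins KRT8 and KRT18, which other epithelia also have. The sum of 9 leukocyte and endothelial markers was 128 to 149 TPM in siMAD2L1 and 70.3 to 75.8 TPM in siControl and was nearly all CD68, a lysosomal protein, which rose (limma adjusted p = 0.00114). CD14 was at 2.90 to 4.43 TPM in siMAD2L1 and 5.24 to 11.3 TPM in siControl, and CD3E was at 0 throughout. The sum of 8 fibroblast markers was 10866 to 11510 TPM in siMAD2L1 and 9621 to 10559 TPM in siControl and was nearly all VIM, which was not called (limma adjusted p = 0.114). The collagen gene COL1A2 fell to 222 to 244 TPM in siMAD2L1, against 371 to 410.0 TPM in siControl (limma adjusted p = 0.00187), and LUM was at 0 throughout. Their part in the results was not tested.

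DKC1 was the only member called in the fit over all genes, and it was lower in siMAD2L1. Its transcript lay at 23.0, 18.3 and 20.8 TPM in siMAD2L1 replicates 1, 2 and 3, against 56.9, 55.6 and 56.0 TPM in siControl replicates 1, 2 and 3. Every siMAD2L1 library was below every siControl library, and the gap between the groups was far wider than the spread within either. The means were 20.7 ± 2.35 TPM in siMAD2L1 and 56.2 ± 0.674 TPM in siControl (SD, n = 3 each), which puts siMAD2L1 at 36.9% of siControl. On the log2(TPM + 1) scale the difference was -1.40 (SE 0.104), and 73 of the 14790 tested genes had a lower value. One member of 7 was called, where 9.78% of all tested genes were called and 6.23% were called lower; since the choice of members used this contrast, nothing is read from that count. With whole cells as the source, fewer cells with the transcript and less of it per cell cannot be told apart. Within siMAD2L1, replicate 1 had the highest MAD2L1 and the highest DKC1, and replicate 2 the lowest of both. SHQ1 and NAF1, which were not called, had the same order, and NOP10, NHP2, GAR1 and TERT did not. Whether DKC1 follows the MAD2L1 left in a library was not tested.

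DKC1 (ENSG00000130826) occupies chrX:154762742-154777689 on the plus strand (GRCh38, GENCODE 29) and has 13 annotated transcripts. The protein-coding genes with a start within 500 kb were listed after their values were seen, so no test is given for them. Of 30 such genes 22 reached a mean of 1 TPM, and their log2 differences had a median of 0.01, with 11 below 0, 11 above and a highest value of 0.71. MPP1, a membrane scaffold gene and the nearest of the 22, with its start 58.3 kb away, was at 27.3 to 29.4 TPM in siMAD2L1 and 29.7 to 33.6 TPM in siControl, a log2 difference of -0.18. DKC1 lay below every one of these neighbours.

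Of the transcripts for the 3 proteins that stand beside dyskerin in the particle, none was called. NOP10, a small protein that binds dyskerin directly, was the most abundant member by TPM, at 450, 552 and 489 TPM in siMAD2L1 and 473, 402 and 482 TPM in siControl. The 2 groups overlapped, with a log2 difference of 0.14 (SE 0.102). GAR1, which joins last, in place of NAF1, was at 28.1, 27.7 and 31.6 TPM in siMAD2L1 and 24.9, 20.9 and 24.5 TPM in siControl. All 3 siMAD2L1 libraries were above all 3 siControl libraries, but the difference of 0.30 (SE 0.111) was not called. NHP2, which binds the RNA in the particle, was at 141, 175 and 182 TPM in siMAD2L1 and 183, 182 and 199 TPM in siControl. Its groups were barely apart, with a highest siMAD2L1 value of 181.6 TPM and a lowest siControl value of 181.7 TPM, and the log2 difference was -0.19 (SE 0.106). Groups did not overlap for 3 of the 7 members, DKC1, GAR1 and NHP2, and likewise did not overlap for 32.8% of all tested genes.

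On GRCh38 (GENCODE 29) NOP10 lies at chr15:34341713-34343177, NHP2 at chr5:178149460-178153967, NAF1 at chr4:163110073-163166921, SHQ1 at chr3:72749277-72861914 and TERT at chr5:1253147-1295069, all on the minus strand, and GAR1 at chr4:109815510-109824740 on the plus strand. The identifier of GAR1 in the table is joined to one from transcript assembly (MSTRG.4205), and NHP2 overlaps RMND5B on the other strand. The strand setting of the counting is not given, so reads of that pair may be mixed. The sign of the NOP10 difference was not stable: it was -0.0014 with siMAD2L1 replicate 1 alone against siControl and 0.33 with a transcript-length trend removed. GAR1 ranged from 0.23 to 0.42 and NHP2 from -0.41 to -0.06 over 18 alternatives, and DKC1 from -1.48 to -1.25.

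**Figure D1:**
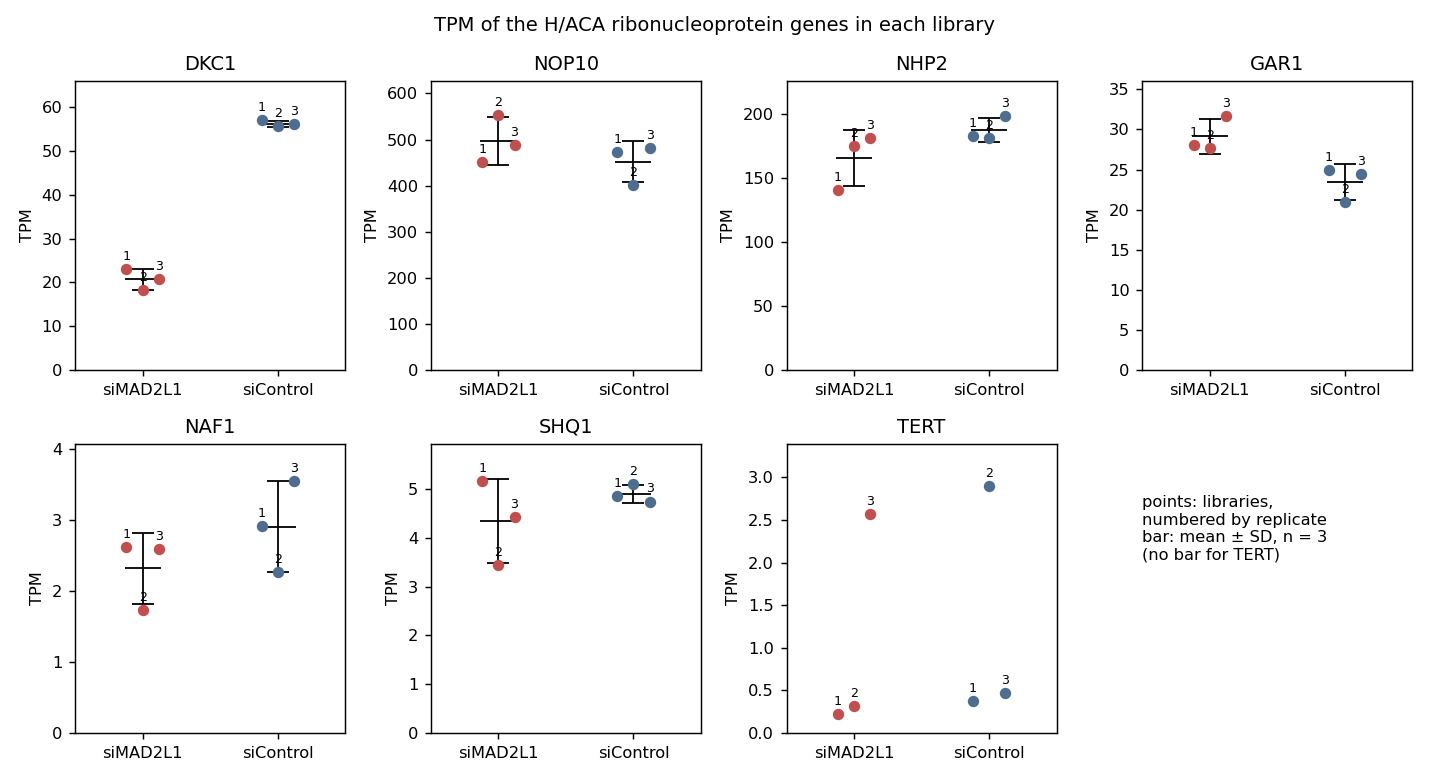
TPM of the 7 genes in each library, siMAD2L1 in red and siControl in blue; points are libraries numbered by replicate and bars are mean ± SD (n = 3), except for TERT. DKC1 lies at 18.3 to 23.0 TPM in siMAD2L1 and at 55.6 to 56.9 TPM in siControl, while NOP10 overlaps between the groups and TERT has 1 high library in each.

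TPM is per transcript length, so levels can also be compared between members. In siMAD2L1 the order of the means was NOP10, NHP2, GAR1, DKC1, SHQ1, NAF1 and TERT. In siControl it was NOP10, NHP2, DKC1, GAR1, SHQ1, NAF1 and TERT, so DKC1 and GAR1 changed places. In each group these 2 genes were apart: GAR1 at 27.7 to 31.6 TPM and DKC1 at 18.3 to 23.0 TPM in siMAD2L1, and DKC1 at 55.6 to 56.9 TPM and GAR1 at 20.9 to 24.9 TPM in siControl. NAF1 and TERT could not be ordered in either group, since their ranges overlapped.

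The summed TPM of the 4 core genes was 713 ± 66.2 in siMAD2L1 and 719.8 ± 53.0 in siControl (SD, n = 3 each), and its largest part was NOP10. Within that sum DKC1 made up 3.59%, 2.37% and 2.87% in siMAD2L1 replicates 1, 2 and 3, against 7.71%, 8.42% and 7.36% in siControl. For each unit of DKC1 TPM there were 1.42 ± 0.172 units of GAR1 in siMAD2L1 and 0.417 ± 0.0356 in siControl. The same ratio for NHP2 was 8.14 ± 1.80 in siMAD2L1 and 3.35 ± 0.177 in siControl, and for NOP10 24.4 ± 5.32 in siMAD2L1 and 8.05 ± 0.721 in siControl (SD, n = 3 each). None of the 3 ratios overlapped between the groups. All 3 are divided by DKC1, whose low values were known at the choice, so this restates the DKC1 difference and is no separate result. These are ratios of mRNA and say nothing of how much protein the particle holds.

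**Figure D2:**
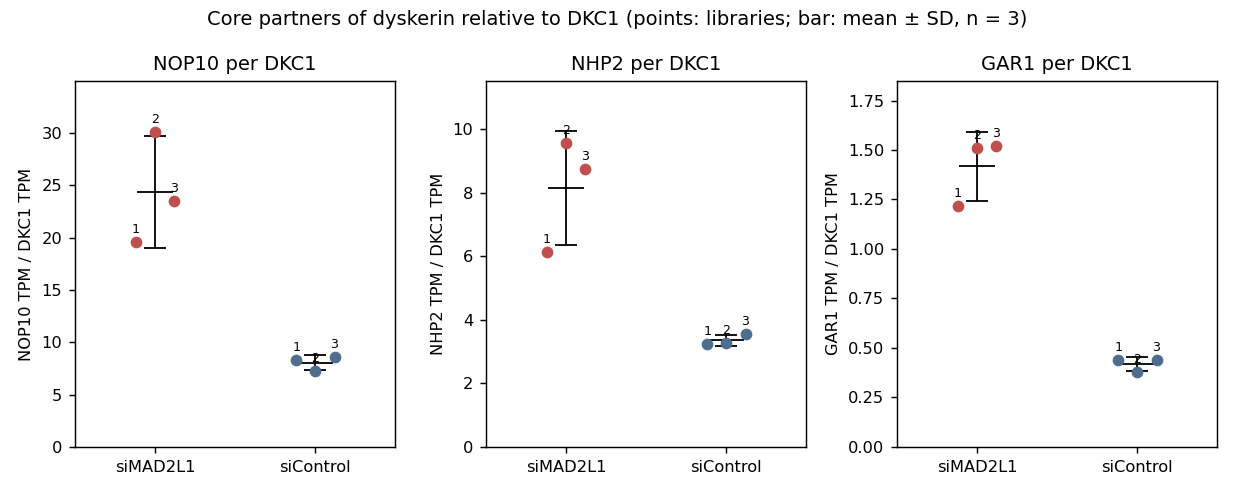
TPM of NOP10, NHP2 and GAR1 divided by the TPM of DKC1 in each library; points are libraries numbered by replicate and bars are mean ± SD (n = 3). All 3 siMAD2L1 libraries are above all 3 siControl libraries in each panel, with GAR1 per DKC1 at 1.22 to 1.52 in siMAD2L1 and 0.376 to 0.438 in siControl. The panels share DKC1 as the divisor, so they restate its lower TPM in siMAD2L1.

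The assembly factors were scarce. SHQ1, the chaperone of free dyskerin, was at 5.16, 3.44 and 4.42 TPM in siMAD2L1 and 4.85, 5.10 and 4.74 TPM in siControl. The groups overlapped, with the highest and the lowest value both in siMAD2L1. Its log2 difference of -0.16 (SE 0.175) changed sign, to 0.06, with siMAD2L1 replicate 1 alone. NAF1, which escorts new H/ACA particles in the nucleus, was at 2.63, 1.74 and 2.60 TPM in siMAD2L1 and 2.92, 2.27 and 3.55 TPM in siControl. These overlapped too (log2 difference -0.23, SE 0.218). Neither gene was called.

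TERT varied more between libraries of 1 group than between the groups. It was at 0.219, 0.315 and 2.57 TPM in siMAD2L1 and 0.370, 2.90 and 0.467 TPM in siControl. The high values were not tied to a group: siMAD2L1 replicate 3 and siControl replicate 2 were high and the other 4 libraries were all under 0.5 TPM. TERT passed the filter, at a mean of 1.14 TPM over the 6 libraries, through those 2 libraries. The log2 difference of -0.15 (SE 0.542) was 0.34 without siControl replicate 2 and -0.65 without siMAD2L1 replicate 3. TERC, the telomerase RNA, was listed at 0 in all 6 libraries. It has no poly(A) tail in its mature form, and how the libraries captured such RNAs is not given in the sources used here.

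H/ACA guide RNAs are cut from introns of host genes, and DKC1 itself is one of those hosts. GENCODE 29 places SNORA36A and SNORA56 inside DKC1 on its strand, SNORA36A outside the exons of every coding transcript and SNORA56 overlapping an exon of at least 1 of them. Both were listed at 0 in all 6 libraries. Of 209 SNORA rows in the table, 172 were at 0 throughout. Above 0 were 9 to 11 in each siMAD2L1 library and 13 to 14 in each siControl library. Over all rows of the table the groups were apart in the same direction. There, 22514 to 23630 rows were above 0 in siMAD2L1 and 24056 to 24258 in siControl. The summed TPM of the SNORA rows was 34.1, 42.4 and 29.1 in siMAD2L1 and 41.2, 38.9 and 34.5 in siControl, which overlap. The DKC1 pair is shown with the only 2 SNORA rows that were above 0 throughout one group and at 0 throughout the other, SNORA65 and SNORA11F; capitals mark a match to the H box pattern ANANNA, the one nearest the middle of the RNA, and the ACA near the 3′ end (GENCODE 29 sequences, 5′ to 3′, written as DNA).
SNORA36A: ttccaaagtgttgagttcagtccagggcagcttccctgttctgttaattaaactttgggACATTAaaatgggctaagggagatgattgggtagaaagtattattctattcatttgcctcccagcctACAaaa
SNORA56: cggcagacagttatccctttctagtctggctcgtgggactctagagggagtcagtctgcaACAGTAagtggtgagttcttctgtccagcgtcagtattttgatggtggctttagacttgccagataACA
SNORA65: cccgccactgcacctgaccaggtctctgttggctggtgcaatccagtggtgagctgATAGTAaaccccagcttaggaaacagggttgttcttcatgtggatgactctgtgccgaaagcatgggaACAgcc
SNORA11F: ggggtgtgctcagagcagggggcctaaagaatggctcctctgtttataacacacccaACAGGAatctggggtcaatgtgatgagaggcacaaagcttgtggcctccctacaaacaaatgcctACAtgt
They lie on GRCh38 at chrX:154768528-154768659 and chrX:154774998-154775126 (plus strand), chr9:127448501-127448630 and chr10:73126080-73126207 (minus strand), in the order printed.

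SNORA65, inside the ribosomal protein gene RPL12, was listed at 4.35, 8.71 and 6.76 TPM in siMAD2L1 and at 0 in siControl. RPL12 was at 2569 ± 220 TPM in siMAD2L1 and 2149 ± 68.3 TPM in siControl (SD, n = 3 each; 0.25, limma adjusted p = 0.0809). SNORA11F was listed at 0 in siMAD2L1 and at 2.17, 2.31 and 2.19 TPM in siControl. These 2 were picked from 209 SNORA rows because they separate the groups. The share of all rows that do so was not counted, so nothing is read from the pattern. Low SNORA values moved in steps. In siMAD2L1 replicate 1, SNORA33, SNORA65 and SNORA31, all of 130 bases, stood at 2.18, 4.35 and 6.53 TPM. Their ratio was 1 to 2 to 3. SNORA65 and SNORA11F both have such low values, so a 0 for either is not read as absence. Of the other protein-coding hosts of SNORA genes, 78 of 83 were tested, 4 fell and 1 rose, 6.41% of those tested against 9.78% of all genes, and their median log2 difference was -0.03 against -0.08 over all genes. ODC1, the rate-limiting enzyme of polyamine synthesis, rose to 85.8 ± 1.10 TPM in siMAD2L1, against 50.6 ± 3.84 TPM in siControl (SD, n = 3 each; 0.75, limma adjusted p = 0.00289, range 0.00154 to 0.0331 over 19 alternatives). CCT6A, a subunit of the chaperonin that folds actin and tubulin, fell to 81.4 ± 22.1 TPM in siMAD2L1, against 152 ± 14.4 TPM in siControl (-0.92, limma adjusted p = 0.0189, range 0.00282 to 0.0908), and lost its call without siMAD2L1 replicate 3 or any 1 siControl library. SLC47A1, NOP56 and, outside the naming rule, RCC1 were the others that fell. The number of these hosts called was 15 without siMAD2L1 replicate 1, 4 and 1 without siMAD2L1 replicates 2 and 3, and 1, 2 and 1 without siControl replicates 1, 2 and 3.

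Factors that build or house H/ACA particles were counted from lists chosen with earlier results of these data known. Of 14 R2TP chaperone and assembly genes, all tested, 3 fell and none rose (21.4%, against 9.78% of all genes), at a median log2 difference of -0.26 against -0.08 over all genes. RUVBL1, an ATPase of the R2TP complex, was at 27.0, 30.4 and 33.4 TPM in siMAD2L1 and 46.7, 46.2 and 47.7 TPM in siControl (-0.62, SE 0.101, limma adjusted p = 0.0110, range 0.00681 to 0.0664 over 19 alternatives), and was not called without siControl replicate 1 or 3. PIH1D1, the R2TP subunit that binds clients, was at 118 to 120.3 TPM in siMAD2L1 and 146 to 151 TPM in siControl (-0.31, adjusted p = 0.0260, range 0.0163 to 0.165 in limma). HSP90AB1, the chaperone that R2TP works with, was at 514 ± 49.7 TPM in siMAD2L1 and 641 ± 9.34 TPM in siControl (SD, n = 3 each; -0.32, limma adjusted p = 0.0457, range 0.00836 to 0.147). PIH1D1 and HSP90AB1 kept a call in 1 fit of the 6 with a library left out, that without siMAD2L1 replicate 1. The count in this list was 4 without siMAD2L1 replicate 1, 1 without siMAD2L1 replicate 2 or 3 or siControl replicate 2, and 0 without siControl replicate 1 or 3.

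Among 7 tested genes of 8 for telomerase RNA and its nucleolar and Cajal body partners, 1 fell and none rose, where 6.23% of all tested genes fell. It was NOLC1, a nucleolar phosphoprotein that binds H/ACA particles. NOLC1 was at 36.6 ± 5.33 TPM in siMAD2L1 and 51.2 ± 1.28 TPM in siControl (SD, n = 3 each; -0.48, limma adjusted p = 0.0422, range 0.0278 to 0.144 over 19 alternatives), and it kept its call in 1 fit of the 6 with a library left out, that without siMAD2L1 replicate 1. WRAP53, whose protein carries H/ACA RNAs of the Cajal body, including telomerase RNA, was at 8.60, 13.3 and 13.7 TPM in siMAD2L1 and 17.8, 18.0 and 17.8 TPM in siControl. The groups did not overlap and the gene did not pass (-0.58, SE 0.174, limma adjusted p = 0.0763, range 0.0266 to 0.210 over 19 alternatives); it is named outside the rule. Of the 5 box C/D core genes, whose particle methylates ribosomal RNA, 1 fell, against 6.23% of all tested genes: NOP56, with 71.4 ± 4.76 TPM in siMAD2L1 and 94.5 ± 9.85 TPM in siControl (SD, n = 3 each; -0.40, limma adjusted p = 0.0489, range 0.0339 to 0.214), called in 1 of the 6 such fits, without siControl replicate 2. The median of that list was -0.01. The list of telomerase partners had 3 calls without siMAD2L1 replicate 1 and 0 without any other library.

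No gene passed in 3 further lists; over all 14790 genes 9.78% were called and 3894 had an unadjusted p under 0.05. Of the 11 tested stand-alone pseudouridine synthases, 0 were called by limma and 2 had an unadjusted p under 0.05, at a median of -0.20; TRUB2, a mitochondrial relative of dyskerin, was at 29.3 ± 1.72 TPM in siMAD2L1 and 31.3 ± 2.77 TPM in siControl (SD, n = 3 each). Of 13 genes for the trimming and decay of telomerase RNA, 0 were called by limma, with 1 at an unadjusted p under 0.05 and a median of -0.24; 3 were called without siMAD2L1 replicate 1. The last list held 10 telomere end genes, those of shelterin and CST, which cap telomeres, and RTEL1. Of these, 0 were called by limma, with 5 at an unadjusted p under 0.05 and a median of -0.17. The log2 difference was below 0 for 6 of them and above 0 for 4, and 2 were called without siMAD2L1 replicate 1. ACD was at 31.1, 41.7 and 41.1 TPM in siMAD2L1 and 48.2 to 50.6 TPM in siControl (-0.38, limma adjusted p = 0.0987). TERF2IP, a shelterin subunit, was at 54.3, 44.97 and 46.2 TPM in siMAD2L1 and 37.0 to 37.7 TPM in siControl (0.36, limma adjusted p = 0.0578, range 0.0231 to 0.186 over 19 alternatives).

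**Figure D3:**
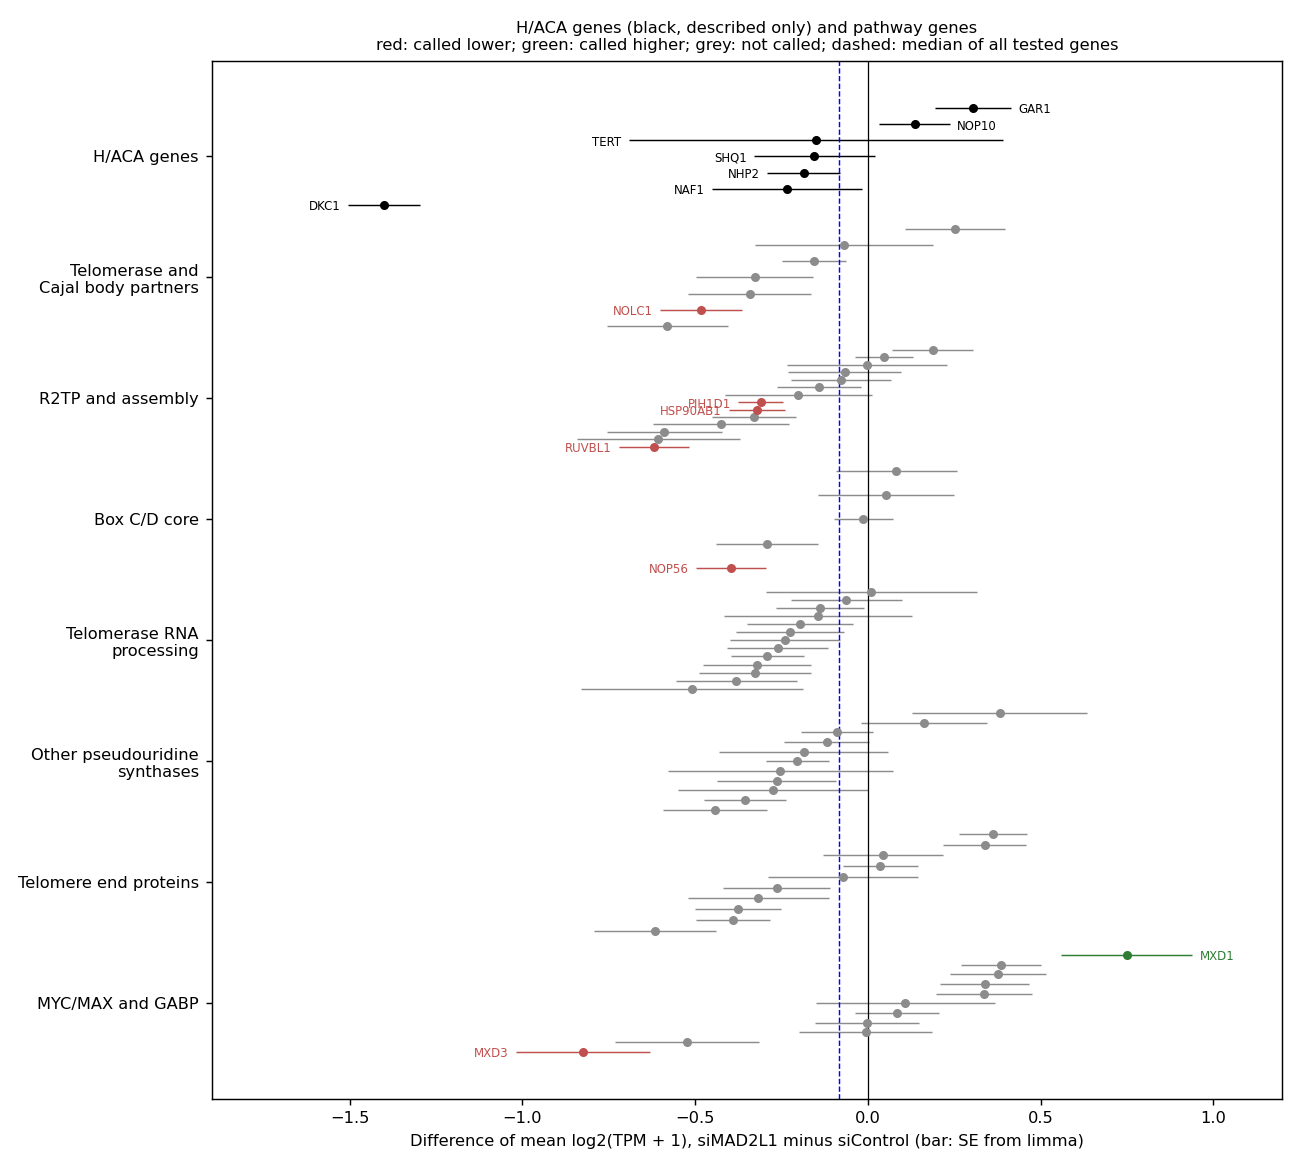
Difference of mean log2(TPM + 1), siMAD2L1 minus siControl, with SE from limma, for the H/ACA genes (black) and the tested genes of 7 related lists (red called lower, green called higher, grey not called). DKC1 stands at -1.40, left of all other genes drawn, of which the lowest is MXD3 at -0.82.

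MYC is a known activator of DKC1 and TERT transcription, and it binds the E-box CACGTG as a dimer with MAX. MYC did not pass, at 46.7, 53.2 and 63.8 TPM in siMAD2L1 and 48.0, 53.2 and 52.2 TPM in siControl (0.08, limma adjusted p = 0.711, range 0.234 to 0.914 over 19 alternatives). Of 11 genes of the MYC/MAX network and GABP, with SP1 among them, 1 rose and 1 fell. Over all tested genes 3.55% rose and 6.23% fell. An unadjusted limma p under 0.05 was found for 7 of the 11, and for 3894 of all 14790 tested genes. The log2 difference was above 0 for 7 of the 11 and below 0 for 4. MXD1, a partner of MAX that represses E-box genes, was at 4.92 ± 1.07 TPM in siMAD2L1 and 2.48 ± 0.0654 TPM in siControl (SD, n = 3 each; 0.75, limma adjusted p = 0.0472, range 0.0136 to 0.150 over 18 alternatives), called in 1 of 6 fits with a library left out. MXD3, of the same family, was at 11.3 ± 3.00 TPM in siMAD2L1 and 20.4 ± 2.19 TPM in siControl (-0.82, limma adjusted p = 0.0370, range 0.0229 to 0.146), called in 2 of the 6. The list had 2 calls without siMAD2L1 replicate 1 or 2 and 0 without any other library.

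E-boxes were looked for in RefSeq windows (GRCh38.p14) from 250 bases before to 50 after a gene's start, which covered 6 of the 7 members with 7 windows. The motif CACGTG, which reads the same on both strands, was in 7.26% of 35116 windows, and in windows of 3 members, NOP10, TERT and 1 of 2 for GAR1. The windows of DKC1, NHP2 and SHQ1 held none. The 4 matches are printed with 10 bases on each side, on the strand of the gene and with the motif in capitals, to show where they lie; whether MYC acts on any member here was not tested.
NOP10, 170 bases before the start: agggacactcCACGTGttttagcctg
NOP10, 11 bases before the start: aattgacgaaCACGTGacgcggtcgg
TERT, 163 bases before the start: ccgcgcttccCACGTGgcggagggac
GAR1, base 32 of the second transcript start: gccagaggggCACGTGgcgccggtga
The printed bases lie on GRCh38.p14 at chr15:34343291-34343316 and chr15:34343132-34343157 (minus strand), chr5:1295216-1295241 (minus strand) and chr4:109815783-109815808 (plus strand), in the order printed. A match is a description of these letters and not evidence of binding.

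Among tested genes with a symbol, those whose course over the 6 libraries came nearest to that of DKC1 were CACNA2D3, TNS3, SULT1C4, ANK1 and KIF20A. Rows without a symbol or with only a clone name were left out. Nearness was the root mean square difference of log2(TPM + 1), each gene centred on its siControl mean, and it ran from 0.0994 for CACNA2D3 to 0.127 for KIF20A. CACNA2D3, a calcium channel subunit, was at 8.39, 7.79 and 8.92 TPM in siMAD2L1 and 21.4, 22.9 and 23.6 TPM in siControl. TNS3, a focal adhesion protein, was at 21.5 ± 2.15 TPM in siMAD2L1 and 53.8 ± 2.66 TPM in siControl (SD, n = 3 each), close to DKC1 in level as well. KIF20A, a kinesin of cytokinesis, was at 7.47 ± 0.303 TPM in siMAD2L1 and 19.1 ± 0.395 TPM in siControl. None of the 5 is a gene of the H/ACA particle or of the lists above.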

How the data were processed

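The authors deposited TPM, 1 column per library. fastp, HISAT2 and DESeq2 1.16.1 and the build hg38 are named per the submitters' processing notes; the counter, annotation and strand setting were not given in the sources used here. Columns were matched to samples by group and replicate number in the titles. The members and lists were chosen with earlier results of these data known. Values were transformed to log2(TPM + 1), and 14790 genes that averaged 1 TPM or more were fitted in limma 3.58.1 (R 4.3.3) with an intensity trend, without covariates; calls are at a Benjamini-Hochberg adjusted p under 0.05. Log2 differences are group means on that scale and understate changes of low genes. The genes named are the 7 members, MAD2L1, MAD2L2, MYC, up to 4 called genes of each list by size of change (otherwise the 2 highest by TPM) and the 5 nearest to DKC1; not all are described. Hosts are protein-coding genes that hold a SNORA gene on the same strand in GENCODE 29. In 10 datasets of 14790 genes simulated for this comparison, 17% of changes of 0.5, 64.6% of changes of 1 and 94.6% of changes of 2 (log2) were recovered. Of the calls, 5.2% were false. The 200 changed genes were drawn from those with a siControl mean log2(TPM + 1) above 2, with independent normal noise. These rates therefore do not cover lower genes such as NAF1 and TERT. Figures used Python 3.11.15 and matplotlib 3.10.9. Protein sequences were not used here.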

Additional observations from a re-analysis of the deposited data

How the results depend on the processing

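DKC1 stayed lower in siMAD2L1 in all 19 alternatives, at -1.48 to -1.32 with a library left out. It was -1.25 with siMAD2L1 replicate 1 alone, where its share of the core differed by -4.24 percentage points. That share differed by -4.88 in the main setting and by -5.21 to -4.59 with a library left out. All these alternatives reuse the libraries whose low DKC1 values were known at the choice, so its calls in them are no support. No other member was called in any of them. MAD2L1 ranged from -2.61 to -1.80 with a library left out and, at -2.22, was not called at an adjusted p of 0.01.

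The number of genes called in all, higher and lower, was 727, 267 and 460 with no filter, 952 and 297 in all and higher without a trend, 359, 154 and 205 at an adjusted p of 0.01, and 326 to 2422, 138 to 716 and 188 to 1706 with a library left out. Those called lower were 481 with the length trend removed and 555 with siMAD2L1 replicate 1 alone. For the lists, in the order telomerase partners, R2TP, box C/D, MYC/MAX and hosts, calls were 0, 2, 0, 0 and 2 with no filter, 0, 1, 0, 1 and 2 without a trend, and 0, 0, 0, 0 and 1 at an adjusted p of 0.01. With the length trend removed the partners, R2TP and box C/D had 0 and MYC/MAX 1. Upper-quartile scaling gave R2TP 1, box C/D 0 and MYC/MAX 1, and a filter at 5 TPM MYC/MAX 1. Box C/D also had 0 with a pseudocount of 0.1, quantile normalization or replicate 1 alone. Telomere end genes had 1 with upper-quartile scaling, quantile normalization or the length trend removed, and 2 with the filter at 5 TPM. They also had 1 with TPM rescaled to a total without mitochondrial genes and the 20 highest of all genes. With a library left out the ranges were 0 to 3 for the partners and for telomerase RNA processing, 0 to 4 for R2TP, 0 to 1 for box C/D, 0 to 2 for MYC/MAX and telomere end genes, 0 for pseudouridine synthases and 1 to 15 for the hosts. The cause was not tested. Robust variance and a pseudocount of 0.5 left every count here within 1.5 times.

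The labels name no pairing of the replicate numbers. Deviations of same-numbered libraries correlated at 0.02, 0.01 and 0.06 across genes, and those of differently numbered libraries at -0.05 to 0.03. With 3 libraries in each group, these values cannot show whether the libraries were made in pairs. With a replicate block 868 genes were called, 336 higher and 532 lower, and the lists in the order above had 0, 1, 0, 0 and 3. The number of reads is unknown, so the low values of TERT, NAF1 and the SNORA genes have no counting error attached.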
